A study of Mus musculus with 4 samples.

Results

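The genes described here are 9 genes of DNA double-strand break and crosslink repair, Prkdc, Xrcc5, Xrcc6, Dclre1a, Brca1, Brca2, Atm, Atr and Ercc6l2, chosen by symbol from the 32285 genes of the deposited tables. Each symbol matched a single gene, and the level of each was read as UMIs summed per library, in tumor cells, in tumor cells by cell cycle phase and in immune classes. A UMI is a molecular tag that marks 1 captured RNA molecule, and CPM gives the UMIs of a gene scaled to a fixed total over all genes of the same sum.

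The libraries came from tumors of DLA cells, Dalton's lymphoma ascites, a transplantable mouse tumor that was injected into the peritoneum of Swiss albino mice. The libraries Control 1 and Control 2 came from control mice, and the libraries Treated 1 and Treated 2 from mice that received SP11, an HSP90 inhibitor, by mouth for 17 days at 30 mg/kg. The labels call the controls untreated, and whether they received the vehicle is not settled by the sources used here. Whether a library was 1 animal or a pool is not stated either, so p-values measure the spread between libraries only.

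Breaks through both DNA strands are rejoined by end joining or by homologous recombination. In end joining, the Ku heterodimer of Xrcc5 (Ku80) and Xrcc6 (Ku70) clasps the broken end and recruits Prkdc, the catalytic subunit of DNA-PK, at any time of the cell cycle. In homologous recombination, Brca1 helps to process the end and Brca2 acts in strand exchange, a route that needs an intact sister copy and is therefore mainly used after DNA replication has begun. Atm and Atr are the kinases that signal breaks and stalled replication, Dclre1a (SNM1A) is a nuclease of interstrand crosslink repair, and Ercc6l2 is an ATPase linked to end joining. HSP90 acts with the TTT and R2TP complexes in the assembly of kinases of the family of Prkdc, Atm and Atr, so the question put to the libraries was whether RNA of these genes differed with SP11.

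The tumor cells were those with at least 5 UMIs of the keratins Krt8 and Krt18, 3211 of 4404 kept cells, with 528 to 1256 cells and 9477943 to 12287495 UMIs per library. The labels name the cells lymphoma, but Krt8 stood at 794 to 1691 CPM in these cells, the pan-leukocyte gene Ptprc at 0.211 to 7.81 CPM and the T cell receptor subunit Cd3e at 0 to 0.824 CPM, so they are called tumor cells by the keratin rule only. Tumor cells were 92.2% and 93.3% of kept cells in the control libraries, against 68.6% and 53.3% in the SP11 libraries. Markers of other cell types were higher in the tumor sums of SP11 libraries. The 5 erythroid genes together stood at 267 and 178 CPM in control and at 10615 and 4740 CPM in SP11 libraries. The 4 leukocyte genes stood at 17.1 and 17.3 CPM against 80.6 and 46.2 CPM, and 228 tumor cells also passed an immune gate, 216 of them in SP11 libraries. Of 4353 distinct barcode sequences, 896 occurred in more than 1 library. Without the cells that passed an immune gate, 5 members in place of 4 were called between S and G1 calls, where Ercc6l2 was added, and the other counts of called members in the tumor comparisons were the same. The part of these markers in the results was not tested otherwise.

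The stretch of 250 bases before the RefSeq start (build GRCm38.p6) was read for 8 of the 9 genes. The promoters of 4 genes are shown for their results by cell cycle phase. Brca1, Brca2 and Xrcc6 were higher in cells called S phase than in those called G1. Atm, whose promoter was read but is not shown, was also called higher there. Xrcc5, the partner of Xrcc6 in Ku, did not pass that test. All run 5′ to 3′ on the strand of the gene, the last base lies next to the start, and capitals mark a GCGGGAA (the core that E2F factors bind) or a CCAAT box on either strand (ATTGG where it lies on the other strand).
Brca1, chr11:101551956-101552205, minus strand: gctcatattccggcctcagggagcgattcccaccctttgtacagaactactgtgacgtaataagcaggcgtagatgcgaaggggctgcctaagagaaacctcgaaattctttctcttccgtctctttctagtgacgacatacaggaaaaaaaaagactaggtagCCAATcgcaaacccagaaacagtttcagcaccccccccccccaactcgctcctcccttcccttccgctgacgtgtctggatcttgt
Brca2, chr5:150522371-150522620, plus strand: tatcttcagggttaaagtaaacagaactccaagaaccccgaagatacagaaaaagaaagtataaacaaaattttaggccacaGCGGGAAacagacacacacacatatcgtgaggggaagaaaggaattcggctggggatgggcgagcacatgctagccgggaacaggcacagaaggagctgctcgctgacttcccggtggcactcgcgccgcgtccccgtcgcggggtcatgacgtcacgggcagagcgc
Xrcc6, chr15:82016119-82016368, plus strand: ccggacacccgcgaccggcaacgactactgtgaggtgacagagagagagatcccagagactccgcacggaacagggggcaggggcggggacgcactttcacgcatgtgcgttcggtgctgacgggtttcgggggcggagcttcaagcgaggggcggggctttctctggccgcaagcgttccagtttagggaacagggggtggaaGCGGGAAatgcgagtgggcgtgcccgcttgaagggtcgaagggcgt
Xrcc5, chr1:72307171-72307420, plus strand: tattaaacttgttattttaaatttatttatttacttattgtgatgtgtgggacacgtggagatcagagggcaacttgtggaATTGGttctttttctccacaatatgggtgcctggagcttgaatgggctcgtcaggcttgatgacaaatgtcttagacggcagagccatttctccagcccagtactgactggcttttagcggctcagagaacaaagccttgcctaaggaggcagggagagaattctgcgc

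GCGGGAA was present on either strand in 2 of the 8 promoters, with its first base 168 bases before the start in Brca2 and 46 before it in Xrcc6. Of 32851 promoters of the same length, 3.82% hold it. Brca1 and Atm, which were also called higher in S phase, did not hold it. CCAAT stood 86 bases before the start of Brca1, and on the other strand 169 bases before that of Xrcc5 and 165 before that of Atm, and 33.8% of all promoters hold it. The E-box CACGTG was present 198 bases before the start of Xrcc5 (6.02% of promoters), and TTTGAA, the core of the CHR element, occurred 2 times in Dclre1a (15.99% of promoters). None of these motifs lay in the windows of Atr and Ercc6l2. The RefSeq start of Xrcc6 lies inside the span that the GENCODE annotation gives to the gene, so the window is the promoter of 1 of its transcripts.

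By the GENCODE annotation of the same assembly, the end-joining genes lie at chr16:15637866-15842235 (Prkdc), chr1:72307421-72394952 (Xrcc5) and chr15:81987835-82040085 (Xrcc6). The recombination genes lie at chr11:101488764-101551955 (Brca1) and chr5:150522630-150570329 (Brca2), and the nuclease Dclre1a at chr19:56529167-56548222. Both kinases lie on chromosome 9, at chr9:53439149-53536740 (Atm) and chr9:95857597-95951781 (Atr), and Ercc6l2 lies at chr13:63815240-63900302. UMIs were counted over whole genes, without regard to which exon they came from.

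In tumor cells, Xrcc6 was the member with the most UMIs and Dclre1a the one with the fewest, 2671 and 158 over the 4 libraries. These libraries tag the 3′ end of transcripts, so CPM compares genes only roughly, and the order is a description. Xrcc6 stood at 58.8, 61.4, 62.3 and 62.3 CPM in Control 1 and 2 and in Treated 1 and 2, in this order, above each other member in each library. Brca1 (27.5 to 34.7 CPM), Brca2 (24.2 to 31.5 CPM) and Xrcc5 (25.3 to 27.6 CPM) followed with overlapping ranges. Below them, Atm (17.8 to 21.4 CPM) and Atr (14.2 to 20.4 CPM) overlapped one another. Ercc6l2 (5.18 to 7.81 CPM), Prkdc (3.73 to 6.68 CPM) and Dclre1a (2.69 to 4.33 CPM) were lowest, each overlapping its neighbor in the order. The catalytic subunit of DNA-PK was thus counted at 227 UMIs, against 1150 and 2671 for the Ku subunits that recruit it.

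No member passed the test between SP11-treated and control tumor cells. In edgeR's quasi-likelihood test on the library sums, 0 of 9 members passed an adjusted p of 0.05, where 2.31% of the 11588 genes tested did. An unadjusted p under 0.05 was reached by 0 members and by 1691 of the 11588 genes, and DESeq2 called 0 members. Adjusted p-values ran from 0.476 to 0.951. Under each of 14 other settings, which included leaving out each library, the count was also 0.

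Among the end-joining genes, Prkdc stood at 3.73 and 5.49 CPM in control and at 4.72 and 6.68 CPM in SP11 libraries, and the groups overlapped. Its log2 fold change (SP11 over control) was 0.18, with an approximate 95% interval from -0.31 to 0.66. Such intervals of log2 fold changes, here and below, are narrower than the edgeR test itself would give. The Ku80 gene Xrcc5 was at 25.3 and 27.6 against 25.9 and 26.9 CPM, with a log2 fold change of -0.13 (-0.40 to 0.13). In CPM, neither gene separated the treatments. Xrcc6 was higher in CPM in both SP11 libraries, 62.3 and 62.3 against 58.8 and 61.4 CPM, but its log2 fold change after TMM scaling, which corrects for differences in composition between libraries, was -0.07 (-0.31 to 0.17). Its direction therefore depended on the scaling. After TMM scaling, Xrcc5 did not overlap, at 26.8 and 28.5 in control and at 25.9 and 24.6 in SP11 libraries. Of all genes, 46.2% did not overlap on that scale.

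Of the recombination genes, Brca1 was at 31.2 and 34.7 CPM in control and at 27.5 and 34.5 CPM in SP11 libraries, with a log2 fold change of -0.22 (-0.48 to 0.05). For Brca2, the values were 24.2 and 31.4 against 28 and 31.5 CPM, with a log2 fold change of -0.03 (-0.31 to 0.25). Both overlapped between the groups in CPM. Dclre1a, at 3.84 and 4.33 against 2.69 and 3.87 CPM, had the log2 fold change farthest from 0 among the 9, -0.45, with a wide interval from -0.98 to 0.09 on 158 UMIs.

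For the kinases, Atm stood at 18.5 and 17.8 CPM in control and at 20.1 and 21.4 CPM in SP11 libraries, without overlap, yet its log2 fold change was 0.07 (-0.22 to 0.35). Atr was at 15.1 and 17.5 against 14.2 and 20.4 CPM, with a log2 fold change of -0.05 (-0.38 to 0.28). Ercc6l2 was at 5.18 and 7.81 against 6.10 and 7.09 CPM, with a log2 fold change of -0.10 (-0.53 to 0.33). In CPM, 2 of 9 members (Xrcc6 and Atm, both higher) did not overlap between the groups, where 44.9% of all genes did not and 36.8% lay higher. After TMM scaling the non-overlapping members were 4 (Atm higher, Xrcc5, Dclre1a and Brca1 lower), where 46.2% of genes did not overlap.

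**Figure D1:**
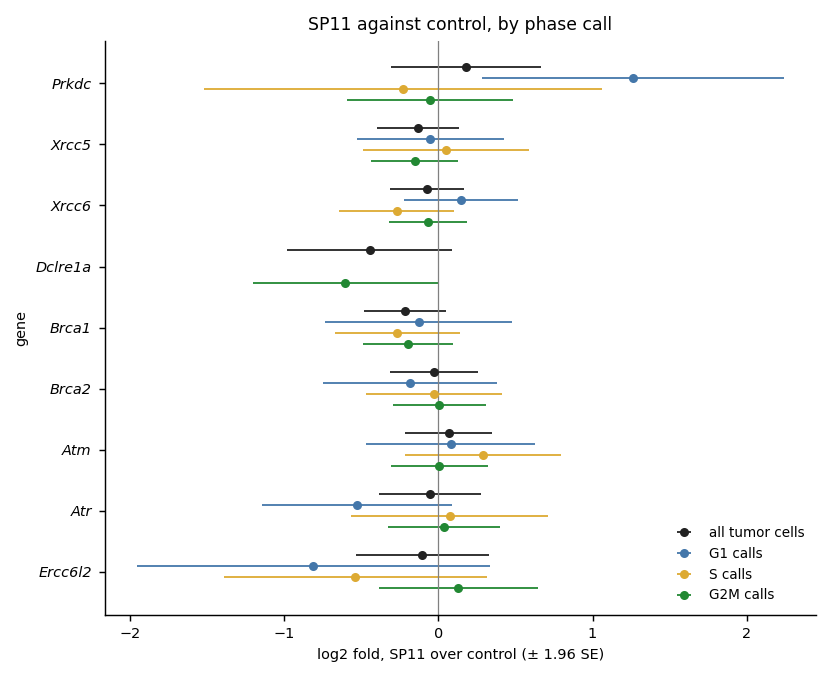
Log2 fold changes (SP11 over control) of the 9 genes on the x axis, in all tumor cells and within G1, S and G2M calls. There were 2 libraries per group, and bars are approximate 95% intervals, narrower than the edgeR test would give. The bars of all 9 genes cross 0 in all tumor cells. The bar of Prkdc lies above 0 in G1 calls and that of Dclre1a ends at -0.0023 in G2M calls. Neither gene passed the adjusted threshold. Dclre1a has no value in G1 and S calls, where too few UMIs were counted.

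The share of tumor cells with a UMI of a gene was compared after each cell of at least 5000 UMIs was thinned to 5000, which left out 46, 17, 105 and 7 cells of Control 1 and 2 and of Treated 1 and 2, in this order. Xrcc6 was seen in 23.9% and 25.2% of control and in 26.6% and 25.7% of SP11-treated tumor cells, and Prkdc in 1.88% and 3.91% against 1.91% and 3.48%. A 2-sided exact permutation test over the libraries gave no p under 0.3333, the smallest that 2 against 2 libraries can give, for any of the 9 genes. Averaged over the 9 genes, the share was 9.33% in control and 10.0% in SP11 libraries. No cell type that lacks these genes was sampled at such a depth, so the shares have no background of their own.

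Repair genes differ with the cell cycle, so tumor cells were next sorted by phase call. Phases were called from 34 S and 53 G2M genes, from which every gene of the repair lists used here had been removed. G1 calls made up 16.9% to 23.3%, S calls 10.4% to 17.2% and G2M calls 60.8% to 72.7% of tumor cells over the 4 libraries. A phase call is a range of a score, and 1314 tumor cells lay within 0.1 of a limit. Median UMIs per cell were higher in S than in G1 calls and higher still in G2M calls of each library (8761, 10696 and 12048.5 in Control 1), which CPM scales away. Values below are CPM of sums per phase and library, and the fit held the library as a block.

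**Figure D2:**
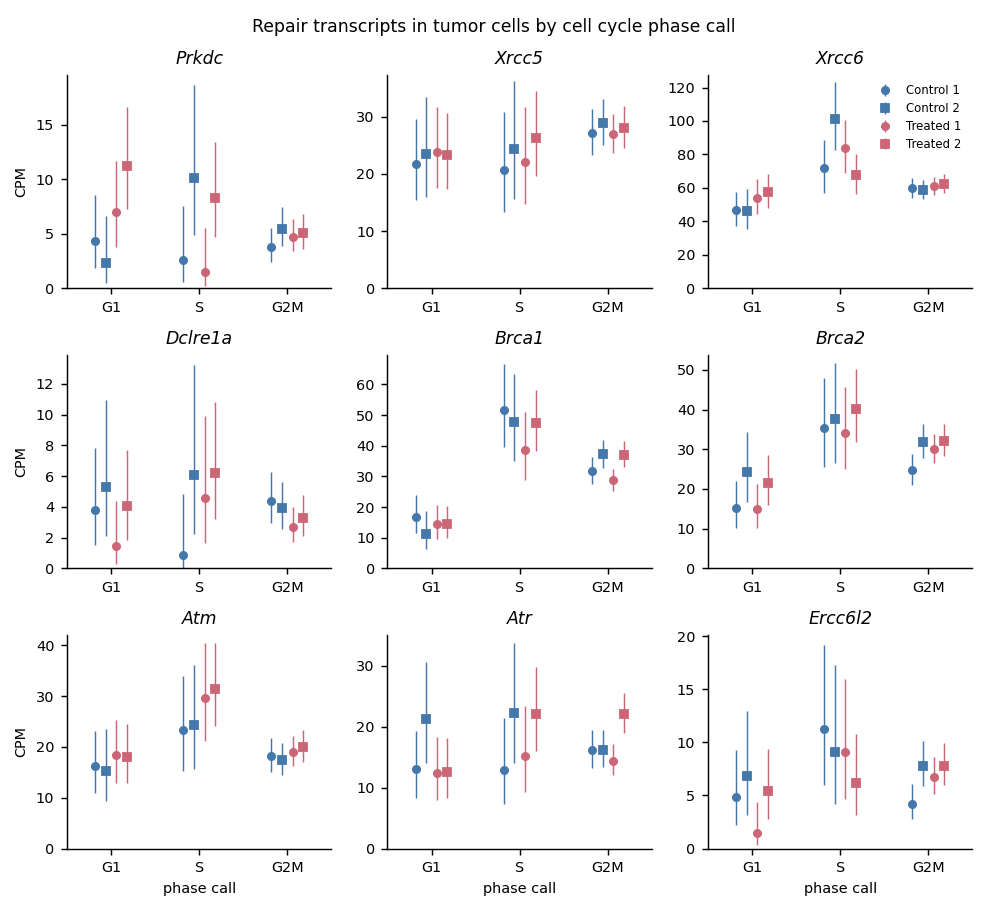
Levels of the 9 genes in CPM on the y axis, in G1-, S- and G2M-call tumor cells on the x axis, 1 panel per gene with its own axis and 1 point per library with its exact 95% Poisson interval. Brca1 lies at 11.4 to 16.8 CPM in G1 and at 38.8 to 51.8 CPM in S calls, whereas Xrcc5 stays between 20.7 and 28.9 CPM in all phases.

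S-call tumor cells had higher levels of Brca1, Brca2, Atm and Xrcc6 RNA than G1-call cells of the same libraries. These 4 of 9 members were called higher and 0 lower, where 5.92% of the 9364 genes tested were called higher and 4.6% lower. DESeq2 also called 4. The Brca1 RNA, whose protein works with Bard1 in end processing, was at 16.8, 11.4, 14.4 and 14.4 CPM in G1 calls of Control 1 and 2 and of Treated 1 and 2, in this order, and at 51.8, 47.7, 38.8 and 47.4 CPM in S calls. Each S value lay far above each G1 value, and the ratio within a library was 2.69 to 4.19. Its log2 fold change was 1.61 (SE 0.16), with an edgeR adjusted p of 1.26e-11.

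Brca2, the mediator of strand exchange, was at 15.2, 24.3, 14.9 and 21.6 CPM in G1 calls and at 35.4, 37.5, 34.2 and 40.2 CPM in S calls, in the same order of libraries. Each S value lay above each G1 value, and the log2 fold change was 0.93 (SE 0.15, edgeR adjusted p of 1.00e-05). Atm, the kinase that ends of breaks activate through the MRN complex, went from 16.3, 15.2, 18.4 and 18 CPM to 23.3, 24.3, 29.6 and 31.5 CPM. The values again did not overlap, and the log2 fold change was 0.64 (SE 0.16, edgeR adjusted p of 0.00465). The Atm call rested in part on Treated 2, since without that library the adjusted p was 0.0746 at a log2 fold change of 0.58, and it was also lost, at 0.0609, when phases were scored on cells thinned to 5000 UMIs.

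Of the Ku subunits, Xrcc6 was called higher in S calls, and Xrcc5 did not pass the test. Xrcc6 was at 46.6, 46.3, 54.1 and 57.5 CPM in G1 and at 71.7, 101, 83.6 and 67.5 CPM in S calls, with no overlap and a log2 fold change of 0.55 (SE 0.11, edgeR adjusted p of 0.000241). Xrcc5 was at 21.7, 23.5, 23.8 and 23.4 CPM in G1 and at 20.7, 24.3, 22 and 26.3 CPM in S calls, which overlapped. Its log2 fold change was -0.02, with an interval from -0.34 to 0.29. Put as a ratio within each sum, there were 2.15, 1.97, 2.27 and 2.46 Xrcc6 UMIs for each Xrcc5 UMI in G1, 3.46, 4.17, 3.79 and 2.57 in S and 2.21, 2.03, 2.27 and 2.23 in G2M calls. The ratio was higher in S than in G1 calls in 4 of 4 libraries, by 0.64 log2 units on average (SD 0.43), and an exact sign-flip test gave a 2-sided p of 0.125, the smallest that 4 libraries allow, so the subunits were not shown to differ. Treated 2 had the smallest step. Xrcc6 shares 41340 bases with Desi1 on the opposite strand, and Cell Ranger counts reads of the gene's own strand only.

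The remaining members did not pass the test between S and G1 calls. Ercc6l2 was higher in S calls in 4 of 4 libraries, 4.88, 6.83, 1.49 and 5.39 CPM in G1 against 11.2, 9.13, 9.12 and 6.19 CPM in S calls, but on 3 to 13 UMIs a sum. Its log2 fold change of 0.86 (0.17 to 1.56) had an adjusted p of 0.124 in edgeR, and it was called in 4 of 16 other settings. Atr, which guards stalled replication forks, was at 13, 21.3, 12.4 and 12.6 CPM in G1 and at 13, 22.3, 15.2 and 22.2 CPM in S calls, with a log2 fold change of 0.30 (-0.11 to 0.71). Dclre1a had 3 to 9 UMIs in G1 and 1 to 12 in S sums, and a log2 fold change of 0.33 (-0.55 to 1.20). Prkdc had 3 to 25 UMIs in G1 and 2 to 16 in S sums, and its log2 fold change was -0.32 (-1.05 to 0.42). For Atr, Dclre1a and Ercc6l2 the interval holds the step of Atm, 0.64, so a difference of that size was not excluded for them. Brca1, Brca2 and Xrcc6 were called in 17 of 17 other settings of the S against G1 comparison.

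In G2M calls Brca1 and Brca2 were above G1, and Brca1, Atm and Xrcc6 were below S. Against G1, 2 of 9 members were called higher (Brca1 and Brca2) and 0 lower, where 10.6% of genes were called higher and 11.9% lower. Brca1 was at 31.6, 37.2, 28.8 and 37.0 CPM in G2M calls, between its S and G1 values in 4 of 4 libraries, with a log2 fold change over G1 of 1.16 (SE 0.13, edgeR adjusted p of 6.59e-10). Brca2 was at 24.7, 31.9, 30.0 and 32.1 CPM, likewise between S and G1, with a log2 fold change over G1 of 0.62 (SE 0.12, edgeR adjusted p of 0.000119). Xrcc5 reached its highest level in G2M calls in 4 of 4 libraries, 27.1, 28.9, 26.9 and 28 CPM, although its log2 fold change over G1 of 0.21 (-0.02 to 0.43) did not pass the test. Prkdc had a log2 fold change of -0.54 (-1.10 to 0.02) over G1, with an edgeR adjusted p of 0.182, and was called lower without Control 2 (-0.79, adjusted p of 0.0490).

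Between G2M and S calls, 3 of 9 members were called lower and 0 higher, where 3.17% of genes were called lower and 3.71% higher, and DESeq2 called 2. Xrcc6 fell by 0.38 on the log2 scale (SE 0.09, edgeR adjusted p of 0.00261), to 59.9, 58.7, 61.1 and 62.4 CPM. Atm fell by 0.56 (SE 0.13, edgeR adjusted p of 0.00262), to 18.2, 17.4, 19.1 and 19.97 CPM, 1.04 to 1.15 times the G1 level of each library. Brca1 fell by 0.45 (SE 0.11, edgeR adjusted p of 0.00314). All 3 were lower in G2M than in S calls in 4 of 4 libraries. Each call was lost when 1 library was left out, while the log2 fold change kept its direction: it was -0.27 (edgeR adjusted p of 0.0871) for Xrcc6 without Control 2, -0.50 (0.0741) for Atm without Treated 2 and -0.39 (0.0522) for Brca1 without Control 1. Atm also missed the threshold in DESeq2, at -0.56 (0.0527), and Brca1 with phases scored on thinned cells, at -0.25 (0.103). Brca2 had a log2 fold change of -0.31 (-0.53 to -0.08) with an adjusted p of 0.104.

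The phase pattern of 4 members can be set beside that of a gene that starts close by on the other strand. Prkdc and Mcm4, a subunit of the replicative helicase, start 466 bases apart on chromosome 16. Mcm4 was at 58.0, 66.8, 64.1 and 65.6 CPM in G1 and at 128, 132, 131 and 104 CPM in S calls (log2 fold change 0.88, SE 0.09), whereas Prkdc had the log2 fold change of -0.32 given above. Mcm4 is one of the genes that scored the S phase, so its own step is a description. Brca1 and Nbr1, a receptor of selective autophagy, start 194 bases apart on chromosome 11, and Nbr1 had a log2 fold change of -0.22 (SE 0.26) where Brca1 had 1.61. Atm and Npat, a coactivator of histone genes, start 307 bases apart on chromosome 9, with log2 fold changes of 0.64 and 0.39 (SE 0.18, adjusted p of 0.198). Dclre1a and Nhlrc2 start 39 bases apart on chromosome 19, with 0.33 and 0.08 (SE 0.25). The difference within each pair was not tested. Of the members, Brca2 shares 4048 bases with Gm42531 and Ercc6l2 shares 1210 bases with Gm47424, both sense-intronic genes on the same strand, whose reads could be taken for each other.

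The genes whose levels over the 12 sums of phase and library were most like those of each member were named as a description, since the sums share libraries and phase scores. Over 4795 genes compared, the genes most like Brca1 included Prim1 (Pearson's r of 0.971) and Cdc45 (0.966). Brca2 was most like Pole (0.943), Slc29a1 (0.943) and Impdh2 (0.936), and Atm most like E2f1 (0.952), Casp8ap2 (0.934) and Timeless (0.929). Xrcc6 was most like Eif4a3 (0.924), Wdr76 (0.910) and Ubr7 (0.908). Of these, Prim1, Cdc45, Casp8ap2, Wdr76 and Ubr7 are among the S-phase scoring genes. Xrcc5 was most like Pdzd11 (0.922), Magt1 (0.913) and Rpp30 (0.903), none of them a scoring gene. Likeness was lower for the sparse members: Atr reached 0.887 with Scamp3, Dclre1a 0.873 with Phactr4, Ercc6l2 0.835 with Nup54 and Prkdc 0.833 with Hacd2.

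Other genes of the same pathways, from lists of repair genes that do not hold the 9 members, moved between S and G1 calls to unequal extents. Of the homologous recombination list, 17 of 34 tested genes were called higher in S calls and 1 lower (5.92% and 4.6% of all genes), with a median log2 fold change of 0.67, beside a median of -0.02 over all genes and of 0.55 over the 9 members. Eme1, a partner of the Mus81 nuclease, was higher by 1.80 and the resolvase Gen1 by 1.74 log2 units, and Swi5, a cofactor of recombination, was lower (-0.24). Of the damage signaling list, 8 of 22 were called higher and 0 lower (median 0.30), among them the checkpoint kinase Chek2 (1.956), the Chek1 adaptor Clspn (1.57) and the histone H2afx (1.18).

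Of the crosslink and Fanconi anemia list, 6 of 22 tested genes were called higher and 0 lower in S calls (median 0.18), led by the glycosylase Neil3 (2.30), Fancd2 (1.34) and the helicase Brip1 (1.23). Of the end-joining list, 1 of 14 was called higher, near the 5.92% over all genes, and the median was 0.23. That gene was Polq (1.42), the polymerase of an alternative pathway that joins ends by microhomology. None of the 7 genes of TTT and R2TP was called in either direction (median -0.01), which does not set so short a list apart from all genes. The lists were not tested against each other. Seen against these lists, the S step of Brca1 was of the size of the leading recombination genes and that of Xrcc6 lay above each tested end-joining gene but Polq.

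**Figure D3:**
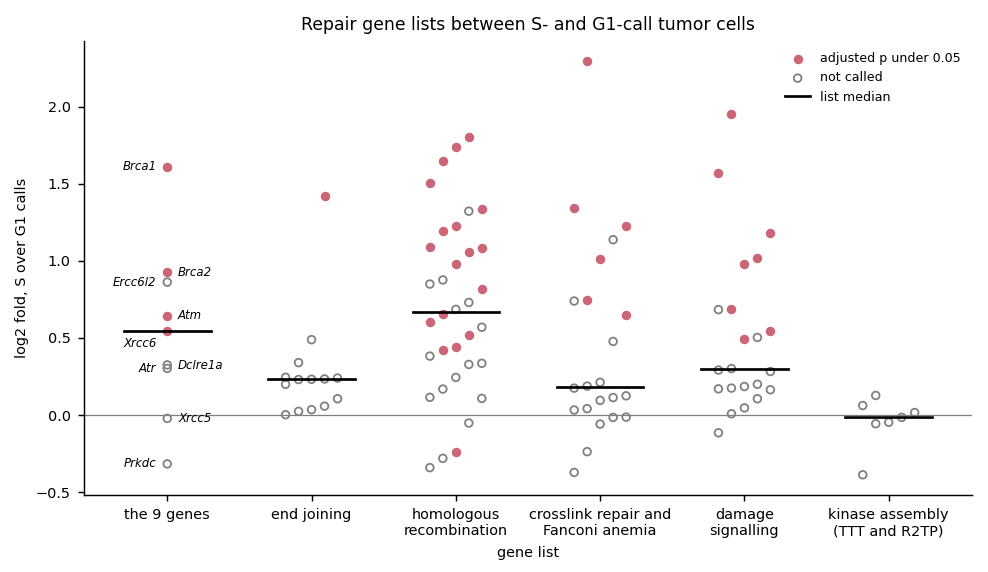
Log2 fold changes between S- and G1-call tumor cells on the y axis for the 9 genes and for the other genes of 5 repair lists on the x axis, filled where the adjusted p was under 0.05, with a bar at the median of each list. Brca1 (1.61) lies among the highest recombination genes, and the kinase assembly genes lie around 0.

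In G2M against G1 calls, 14 of 34 recombination genes were called higher and 1 lower (Swi5, -0.18), and 8 of 22 crosslink genes and 8 of 22 signaling genes higher, where 10.6% of all genes were called higher and 11.9% lower. Of the end-joining list, Polq (1.08) and Parp1 (0.24) were called higher, 2 of 14 genes, which is near the share over all genes. The crosslink genes Neil3 (2.59), Ube2t (1.40) and Fancd2 (1.27) and the signaling genes Chek2 (2.22), H2afx (1.46) and Clspn (1.13) led their lists, as did Gen1 (2.31) and Eme1 (1.78) in recombination. In G2M against S calls, 9 of 34 recombination genes were called lower and 0 higher (3.17% and 3.71% of all genes), with Xrcc3 (-0.88), Rmi2 (-0.75) and Rpa2 (-0.67) in front, the direction that Brca1 took. Of the signaling genes, 6 were lower, led by Chek1 (-0.60), Timeless (-0.53) and Clspn (-0.43), and 1 was higher, H2afx (0.28), while Faap24 (0.80) was the 1 crosslink gene called higher. No end-joining gene and no TTT or R2TP gene was called between G2M and S calls, which at these shares does not set either list apart from all genes.

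Between SP11-treated and control tumor cells, 0 genes of any of the 5 lists were called, where 2.31% of the 11588 genes tested were. At that low share, a count of 0 does not set these lists apart from all genes. The medians ran from -0.09 (damage signaling) to 0.00, beside a median of 0.00 over all genes. For TTT and R2TP, the complexes that act with HSP90, all 7 genes were tested and the median log2 fold change was 0.00. These are RNA levels, and the libraries do not measure the proteins.

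Within a phase, no member passed the test between SP11-treated and control tumor cells either. In G1 calls, 0 of 8 tested members were called (0.559% of genes were called), and DESeq2 called 0. An unadjusted edgeR p under 0.05 was reached by 1 member and by 765 of 8594 genes. That member was Prkdc, at 4.34 and 2.28 CPM in control and at 6.95 and 11.2 CPM in SP11 libraries, from 8, 3, 14 and 25 UMIs. The log2 fold change of Prkdc was 1.26 (0.28 to 2.24), and the adjusted p was 0.412 in edgeR. In S calls, where 0.652% of genes were called, 0 of 8 members were called, and DESeq2 called 0. An unadjusted edgeR p under 0.05 was reached by 0 members and by 652 of 7671 genes. Prkdc there stood at 2.59 and 10.1 against 1.52 and 8.25 CPM, which overlapped, with a log2 fold change of -0.23 (-1.52 to 1.06).

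In G2M calls, where 1.75% of genes were called, 0 of 9 members were called, and DESeq2 called 0. An unadjusted edgeR p under 0.05 was reached by 0 members and by 1465 of 11033 genes. Dclre1a was farthest from 0, at 4.37 and 3.90 CPM in control and at 2.68 and 3.26 CPM in SP11 libraries. Its log2 fold change was -0.60, with an unadjusted p of 0.0657 and an adjusted p of 0.408 in edgeR. The approximate interval of Dclre1a, -1.21 to -0.0023, leaves out 0 although the unadjusted p was above 0.05. The interaction of phase and treatment was called for 0 of 9 members, 0 by DESeq2, and for 0.032% of all genes. An unadjusted edgeR p under 0.05 was reached by 0 members and by 431 of 9364 genes. The steps of Brca1 and Brca2 between phases were thus not shown to differ with SP11 (interaction adjusted p of 0.9999 for both in edgeR).

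The study considers Prkdc and Dclre1a in relation to Bcl2, an inhibitor of apoptosis, and Ercc6l2 in relation to Myc, a driver of growth, among SP11-treated cells annotated as stem cells and graded by Myc, Bcl2 and Hsp90aa1. The groups compared here are unlike those: all keratin-gated tumor cells of the 4 libraries were split by any UMI of Bcl2 or of Myc, within libraries. Between the 285 tumor cells with a Bcl2 UMI and the 2926 without, 0 of 9 members were called (0.948% of genes were called), and DESeq2 called 0. An unadjusted edgeR p under 0.05 was reached by 1 member, Dclre1a, and by 1115 of 10973 genes. Dclre1a was at 3.47, 4.00, 5.76 and 7.0 CPM with and at 3.86, 4.38, 2.40 and 3.15 CPM without a Bcl2 UMI in Control 1 and 2 and in Treated 1 and 2, in this order. It was higher with Bcl2 in both SP11 libraries and slightly lower in both controls, on 2 to 16 UMIs with Bcl2, and the log2 fold change was 0.67 (0.01 to 1.32) with an adjusted p of 0.487 in edgeR.

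Prkdc was at 1.74, 4.80, 3.84 and 10.5 CPM with and at 3.86, 5.59, 4.80 and 5.79 CPM without a Bcl2 UMI, higher with Bcl2 in Treated 2 only. Its log2 fold change was 0.26 (-0.30 to 0.82). Between the 961 tumor cells with a Myc UMI and the 2250 without, 0 of 9 members were called (0.343% of genes were called), and DESeq2 called 0. An unadjusted edgeR p under 0.05 was reached by 1 member and by 923 of 10802 genes. That member was Brca2 (log2 fold change -0.18, adjusted p of 0.564 in edgeR). Ercc6l2 was at 4.29, 7.1, 3.81 and 7.21 CPM with and at 5.55, 8.45, 6.89 and 6.99 CPM without a Myc UMI. It was lower with Myc in 3 of 4 libraries, with a log2 fold change of -0.30 (-0.66 to 0.06). Deeper cells have more chance of a Bcl2 or Myc UMI. A split of the tumor cells of at least 5000 UMIs, each thinned to 5000, also called 0 members in each. That split called only 3 genes in all for Bcl2 and 6 for Myc, so its count of 0 members decides little.

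**Figure D4:**
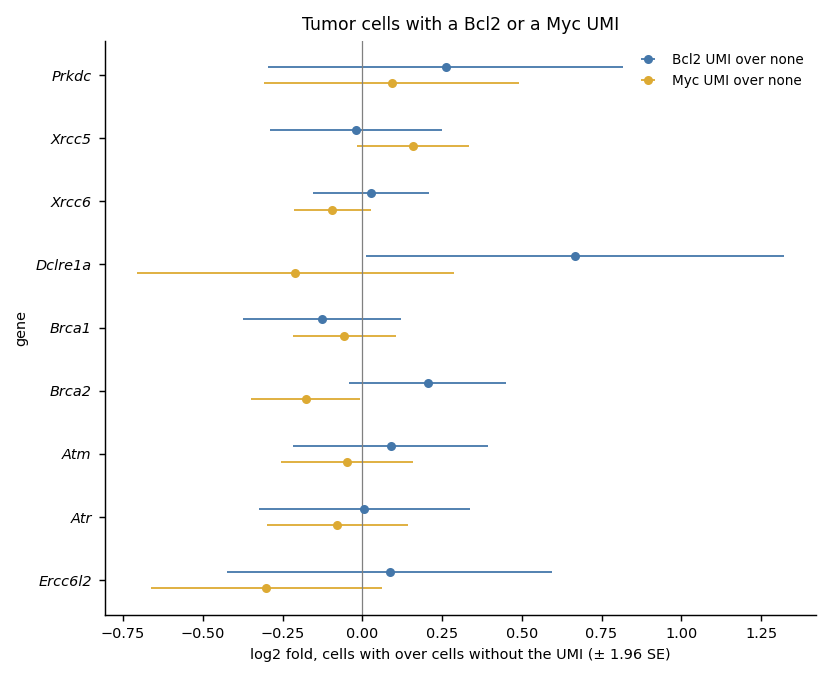
Log2 fold changes of the 9 genes on the x axis between tumor cells with and without a Bcl2 UMI, or a Myc UMI, over 4 libraries. Bars are approximate 95% intervals, narrower than the edgeR test would give. Only the bars of Dclre1a for Bcl2 (0.01 to 1.32) and of Brca2 for Myc lie on one side of 0, and neither gene passed the adjusted threshold.

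Immune cells were gated by marker UMIs, with at most 1 UMI of Krt8 and Krt18, and nearly all came from SP11 libraries. B cell-like cells numbered 1, 0, 146 and 142 in Control 1 and 2 and in Treated 1 and 2, T cell-like cells 8, 1, 15 and 76, macrophage- and monocyte-like cells 20, 12, 177 and 122, and neutrophil-like cells 3, 1, 12 and 48. They were shallow, with 1044 and 1859 median UMIs in the macrophage- and monocyte-like cells of Treated 1 and Treated 2, so each member was counted at 13 UMIs or fewer per class over both SP11 libraries. Those counts were set against the UMIs expected at the tumor cells' level of the same libraries, with exact Poisson intervals that cover counting error only. The 6 epithelial genes of the check list other than the keratins of the gate stood at 6.93% to 9.41% of the tumor level in the 4 immune classes, and a member at such a share of the tumor level cannot be told from tumor RNA carried over into the droplets.

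In the 299 macrophage- and monocyte-like cells of SP11 libraries, both Ku genes and both Brca genes were under the tumor level. The share of all genes under it by this measure was not counted, so these genes are not set apart from others. In the edgeR fit given below, 31% of 6780 genes were called lower in this class. Xrcc6 had 5 UMIs where 29 were expected, Brca1 had 1 where 14.6 were expected, and Xrcc5 had 1 where 12.3 were expected. Brca2 had 0 UMIs where 13.9 were expected, at least 4.65-fold lower by the limit of 3 counts for a sum at 0. The last 3 were at or under the share of the epithelial genes. Atm had 5 UMIs (9.70 expected), Atr 5 (8.19), Prkdc 5 (2.70), Dclre1a 2 (1.56) and Ercc6l2 2 (3.10), and for these 5 genes the tumor level lay inside the interval.

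In B cell-like cells the signaling kinases were counted near the tumor level. In 288 cells of SP11 libraries, Atm had 13 UMIs where 8.47 were expected and Atr had 8 where 7.30 were expected. Brca2 had 1 UMI (12.2 expected), Brca1 4 (12.9), Xrcc5 4 (10.7) and Xrcc6 10 (25.2), all below the tumor level beyond counting error. The share of all genes below or above it was not counted here either. The edgeR fit called 24.7% of 6780 genes lower and 24.1% higher in this class. Ercc6l2 went the other way, with 8 UMIs (2 in Treated 1 and 6 in Treated 2) where 2.72 were expected, 294% of the tumor level (127% to 580%).

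T cell-like cells, 91 in SP11 libraries, had 5 UMIs of Ercc6l2 where 0.578 were expected (1 in Treated 1 and 4 in Treated 2), 865% of the tumor level (281% to 2019%). Their other members had 0 to 2 UMIs each, and for all 8 the tumor level lay inside the interval. Ercc6l2 was the member with the highest share of the tumor level in both lymphocyte classes, on 13 UMIs in all. The share of all genes above that level was not counted, so Ercc6l2 is not set apart from other genes.

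The 60 neutrophil-like cells of SP11 libraries held 0 UMIs of each of the 9 members among 59518 UMIs. At the tumor level, Xrcc6 would have given 3.71 UMIs and each of the others under 2, near or below the limit of 3 counts, so no fold is given. The 5 erythroid genes held 6602 of the UMIs in Treated 1 and 13796 in Treated 2. The expected counts were scaled on totals that include this RNA, so they are too high for the rest. For SP11 against control, the macrophage- and monocyte-like class had 2 libraries a group, but no member passed the filter on low counts (7.38% of the 1871 genes tested were called). Control cells of that class held 2 member UMIs, 1 of Prkdc and 1 of Atr, both in Control 2. Erythroid RNA differed here too, at 275 to 297 CPM in the control and at 75317 and 52535 CPM in the SP11 cells of this class. In Treated 1 and Treated 2, it stood at 70740 and 72621 CPM in B cell-like and at 123663 and 72559 CPM in T cell-like cells. Its part in the levels was not tested.

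**Figure D5:**
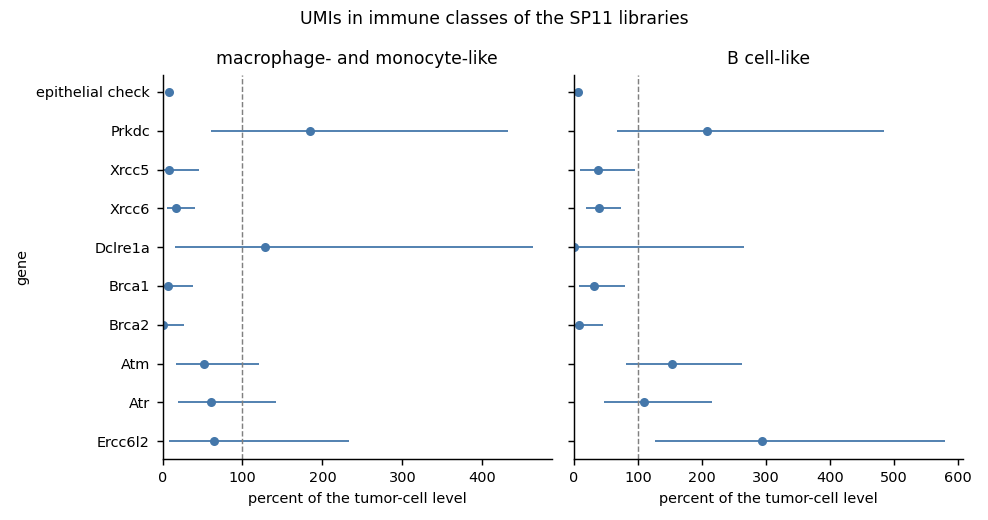
Levels of the 9 genes and of the epithelial check genes (y axis) in macrophage- and monocyte-like and in B cell-like cells of the SP11 libraries, as percent of the level in tumor cells of the same libraries (x axis), with exact Poisson intervals and a dashed line at 100%. Xrcc6, Xrcc5, Brca1 and Brca2 lie below the line in both classes, intervals included, and Ercc6l2 lies above it in B cell-like cells. The share of all genes that lie off the line was not counted.

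Sums of each class and of tumor cells with at least 20 cells were also fitted together in edgeR, where 31% of 6780 genes were called lower in macrophage- and monocyte-like, 24.7% in B cell-like and 22.7% in neutrophil-like cells, and 28.8% in either direction in T cell-like cells. The T cell-like and neutrophil-like classes each had only 1 library with at least 20 cells, Treated 2. Of the members, only Xrcc6, Atm and Ercc6l2 passed the filter on low counts. A gene could pass it through the sums where it was high, which fixes a direction, so no call of a member or of a repair list is given as a result for these classes.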

How the data were processed

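Single-cell RNA-seq of 4 tumor libraries was analyzed, 2 control and 2 SP11-treated. The deposited values are raw counts of UMIs for each gene in each cell, without normalization, which the file headers credit to Cell Ranger 7.1.0. The submitters' processing notes name the mouse build mm10, while the study's text names a human build. The symbols are mouse genes, and 32235 of 32285 identifiers matched GENCODE's mouse annotation.

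Cells with at least 200 genes and at most 10% mitochondrial UMIs were kept, 4404 of 5332 barcodes. Tumor cells had at least 5 UMIs of Krt8 and Krt18, and immune classes at most 1. The B and T cell-like gates needed 2 UMIs, the macrophage- and monocyte-like gate 3 and the neutrophil-like gate 10. Doublets were kept. Scrublet scores above 0.2 marked 285 cells (6.47%), which an alternative left out, since the automatic limit marked 814 of 916 kept cells of Control 1. Phases were called with scanpy 1.11.5 from Seurat's gene lists without the repair genes.

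UMIs were summed per library and class, and sums across many genes were tested with edgeR 4.0.16 (quasi-likelihood, TMM, filterByExpr, Benjamini-Hochberg adjustment over all genes tested, threshold 0.05) in R 4.3.3, with limma 3.58.1 installed. DESeq2 1.42.0 was an alternative. The median log2 fold change over all genes was between -0.02 and 0.00 in the tumor comparisons. Intervals of counts and shares are exact Poisson and Clopper-Pearson intervals at 95% and cover counting error only, and a sum at 0 has a limit of 3 counts. Standard errors of log2 fold changes were derived from the fold and the F value of the edgeR test. The 95% intervals built on them use the normal distribution and are therefore approximate. They are too narrow for few libraries, so such an interval can leave out 0 where the test does not pass. The fits of SP11 against control, of S against G1 calls and of the Bcl2 split were run on counts simulated with the same spread for all genes. That does not test the spread between these libraries. Python 3.11.15, numpy 2.4.6, scipy 1.17.1, pandas 2.3.3 and matplotlib 3.10.9 were used.

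The 9 members and the gene lists were chosen with earlier results of these data known. Genes named are all members in each comparison, of the other lists up to 3 called genes with the largest fold in each direction, and for each member with at least 100 UMIs the 3 genes of at least 20 CPM most like it over the 12 phase sums. Some genes that this rule names are not reported here. Divergent neighbors and overlapping genes were named from the annotation. Alternatives were normalization, filters, gates, phase scoring, doublets, the replicate block and leaving out each library. Those with cells of at least 5000 UMIs, with centered phase scores and the fixed doublet limit were chosen after seeing the data. Thinned shares were not adjusted over the 9 genes.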

Additional observations from a re-analysis of the deposited data

How the results depend on the processing

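In tumor cells, the count of members called was 0 in every alternative run for SP11 against control, within each phase, for the interaction and for the Bcl2 and Myc splits. No direction of a called member reversed. With the replicate block, 0 members were called for SP11 against control in all tumor cells, in each phase and among macrophage- and monocyte-like cells. Genes called moved from 268 to 1038 in all tumor cells, from 48 to 192 in G1, 50 to 128 in S and 193 to 653 in G2M calls, and from 138 to 53 in the class. Whether libraries of the same number belong together is not settled: the labels give no shared animal, batch or day, the study mentions independent sets of samples without saying how the numbers match them, and the correlation of their deviations, 0.127, rests on 2 pairs.

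Members called ranged from 3 to 5 around 4 for S against G1 and from 2 to 3 around 2 for G2M against G1. The G2M against S count was 5 with centered phase scores and 2 to 4 in the others. In the immune classes a member could pass the filter through the sums where it was high, and T cell-like and neutrophil-like cells had 1 library, so the counts that follow support no result. Macrophage- and monocyte-like cells had 4 members called without the filter on low counts, where 5146 genes were called in all (4119 with the filter). The count of members also changed when a library was left out. In B cell-like cells 3 members were called without the filter, where 3931 genes were called in all (3312 with the filter). There 0 were called by DESeq2 or at a limit of 20% mitochondrial UMIs, and 2 with at least 2 keratin UMIs or gates of 2 times the UMIs. Leaving out a library also changed the count. In T cell-like and neutrophil-like cells, each with 1 library, the count of members called also shifted with the setting and is not given. The cause of these shifts was not tested. Where a library was left out, the lone one of its group was assumed to vary like the others.

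Over alternatives, genes called ranged from 78 (without Control 2) to 1038 for SP11 against control in tumor cells, from 550 to 1730 around 985 for S against G1, from 1258 to 2270 around 2104 for G2M against G1, and from 267 to 1598 around 644 for G2M against S. They ranged from 17 to 192, 17 to 128 and 81 to 653 for SP11 in G1, S and G2M calls, from 3 to 215 around 104 for Bcl2 and from 6 to 101 around 37 for Myc. Of the alternatives' results for single genes, 1354 stayed the same, 14 newly passed the threshold, 16 no longer passed it and 6 shares of cells moved. The same meant the same side of the threshold or, for a share of cells, a move smaller than the SD between libraries. With 2 libraries a group and few UMIs of Prkdc, Dclre1a and Ercc6l2, only large changes of these genes were detectable.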
